A study of Mus musculus with 6 samples.

Results

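A set of 10 genes of the antimicrobial defence of the gut epithelium was followed in the colonic epithelium of 3 miR-31 knockout and 3 wild-type male mice. The genes were Reg3b, Reg3g, Lcn2, S100a8, S100a9, Nos2, Duox2, Duoxa2, Lypd8 and Lrg1. Members were the non-control array probes whose RefSeq accession maps to 1 of these 10 symbols, and 10 of the 56605 probes did so, covering 9 of the 10 genes. No probe matched Duox2 through the RefSeq table used, which leaves some accessions of the array unnamed, so a Duox2 probe under such an accession would be missed. Duox2 is not analysed here. Per the study's design note, the epithelium of each mouse was separated by flow into TRIzol, and each mouse gave 1 Agilent one-colour array labelled with Cy3. The strain, the age, the gate of the separation and the way the knockout was made are not given in the sources used here, nor is whether the deletion is limited to the epithelium. Values are processed intensities as log2 relative to the 75th percentile of the array, so that 0 marks the upper quartile of an array's signal.

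The colon keeps bacteria away from its epithelium with secreted and membrane-bound proteins. Reg3b and Reg3g are secreted C-type lectins that kill or hold back bacteria, and their transcription in mouse gut is driven by interleukin 22 through STAT3 and by microbial signals. Lcn2, S100a8 and S100a9 withhold metals from microbes, Nos2 and the Duox2 enzyme with its maturation factor Duoxa2 make nitric oxide and hydrogen peroxide, Lypd8 coats flagella of bacteria at the colonic surface, and Lrg1 is a secreted leucine-rich glycoprotein induced together with acute-phase genes. Several of these genes are expressed at low levels in the healthy colon and rise in inflammation, and some are also made by neutrophils or endothelial cells.

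MiR-31 is the microRNA that the knockout animals lack. Its 2 mature strands are shown because they are the molecules removed by the genotype, from RefSeq (GRCm38.p6, minus strand of chr4:88910614-88910635 and chr4:88910577-88910599), with the seed, bases 2 to 8, in capitals. No probe matched Mir31, so the arrays do not check the deletion.
miR-31-5p: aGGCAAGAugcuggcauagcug
miR-31-3p: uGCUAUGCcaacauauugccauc

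Each array had a signal well above background at 66.6% to 75.6% of its probes. Arrays correlated across probes at 0.985 to 0.989 within the knockout group, 0.987 to 0.989 within the wild-type group and 0.979 to 0.989 between groups. All 10 epithelial marker genes, Epcam, Krt8, Krt20 and Vil1 among them, were well above background on all 6 arrays. So were 7 of 9 T and B cell markers, 6 of 9 stromal markers and 6 of 10 macrophage markers. The arrays therefore do not show the samples to be free of other cells. In RNA pooled from many cells, fewer cells of a type and less RNA per cell cannot be told apart. Knockout arrays lay in row 1 and wild-type arrays in row 2 of the slide, so slide row and genotype cannot be told apart. Knockout replicates 1 and 2 and wild-type replicates 1 and 2 have titles starting with S405 and lay in slide columns 1 and 2, while knockout replicate 3 and wild-type replicate 3 have other title numbers and lay in columns 3 and 4. Nothing in the labels says what the title numbers stand for, and p-values measure the spread between these animals.

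Secreted lectins of the Reg3 family, Reg3b and Reg3g, spanned a wider range among the wild-type animals than among the knockout animals. Both are single-probe genes on chromosome 6. Their spots were well above background on every array, but the extraction software marked the spot of Reg3b as non-uniform or as an outlier on 5 of the 6 arrays and that of Reg3g on 4. With fewer than 2 unmarked arrays per group they could not enter the test, and their values below keep the marked spots. Reg3g had log2 levels of 1.46, 2.19 and 1.95 in knockout replicates 1 to 3, against 3.76, 3.59 and 0.30 in wild-type replicates 1 to 3. Wild-type replicates 1 and 2 were above all knockout arrays and wild-type replicate 3 was below all of them, so the groups overlapped. Reg3b had log2 levels of 0.66, 1.92 and 2.15 in the knockout arrays, against 2.67, 2.78 and 0.80 in the wild-type arrays. Here too wild-type replicates 1 and 2 were the brightest arrays, while wild-type replicate 3 lay just above knockout replicate 1.

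With the marked spots kept, Reg3g had a log2 change of -0.69 ± 0.87 and Reg3b one of -0.51 ± 0.61 in knockout against wild-type epithelium (SE from limma, n = 3 and 3), and neither passed over all 32275 features of that fit (adjusted p = 0.830 and 0.821, with 0.17% of features called). For 15.5% of features the groups did not overlap. The range among wild-type arrays was 3.45 log2 units for Reg3g and 1.99 for Reg3b, larger than that of 99.9% and 99.3% of features, whose median range was 0.35. Among knockout arrays the ranges were 0.73 and 1.49, larger than those of 83.2% and 97.0% of features. Without wild-type replicate 3, the change of Reg3g was -1.81 ± 0.23 (adjusted p = 0.0841) and that of Reg3b was -1.15 ± 0.45 (adjusted p = 0.326), and neither passed, where 0.0093% of features were called lower in the knockout. Leaving out other arrays moved the values too, in both directions. The change of Reg3g was -0.085 without wild-type replicate 1 and -0.17 without wild-type replicate 2. Without knockout replicates 1, 2 and 3 in turn it was -0.48, -0.85 and -0.73. That of Reg3b was -0.21 without wild-type replicate 1 and -0.16 without wild-type replicate 2. Leaving out knockout replicates 1, 2 and 3 in turn gave -0.050, -0.68 and -0.79 for Reg3b. The size of both differences thus depended on single animals. Marked spots were not spread evenly: the Reg3g spot carried the mark on all 4 arrays with titles starting S405 and on neither of the others. The Reg3b spot was unmarked only on wild-type replicate 3, its lowest wild-type array. Marked spots made up 17.0%, 12.8% and 7.44% of spots on knockout arrays, against 17.3%, 15.5% and 4.95% on wild-type arrays. The part of the marking in the Reg3 values was not tested.

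The promoters of Reg3b and Reg3g are shown because both family members were highest in wild-type replicates 1 and 2. Both are RefSeq sequences of 300 bases, 250 before to 50 after the start site, on GRCm38.p6, at chr6:78370635-78370934 on the plus strand and chr6:78468825-78469124 on the minus strand, written 5′ to 3′. Capitals mark matches to the STAT motif TTCNNNGAA or the C/EBP motif TTGCNNAA, searched on both strands.
Reg3b: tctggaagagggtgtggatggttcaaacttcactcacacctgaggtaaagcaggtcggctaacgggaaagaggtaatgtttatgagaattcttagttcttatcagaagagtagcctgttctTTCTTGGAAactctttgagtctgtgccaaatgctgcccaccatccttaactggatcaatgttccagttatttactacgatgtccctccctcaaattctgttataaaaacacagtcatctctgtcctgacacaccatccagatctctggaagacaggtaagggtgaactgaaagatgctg
Reg3g: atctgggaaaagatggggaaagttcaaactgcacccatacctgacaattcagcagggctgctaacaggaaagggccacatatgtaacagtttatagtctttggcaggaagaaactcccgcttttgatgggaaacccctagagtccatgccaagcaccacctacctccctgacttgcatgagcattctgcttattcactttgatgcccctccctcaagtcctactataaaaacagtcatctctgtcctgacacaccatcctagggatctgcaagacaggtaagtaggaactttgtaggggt
Aligned end to end, the pair was identical at 207 of 304 columns (68.1%), and the longest shared run was acagtcatctctgtcctgacacaccatcc, 29 bases long and starting 20 bases before the start site in both. Reg3b held 1 STAT match, TTCTTGGAA, from 129 bases before its start site, and Reg3g held no match to either motif in this window. Of the 32851 promoters in the table, 8.3% held a STAT match and 10.8% a C/EBP match. A match of letters is not a binding site, and its absence says only that these letters are not in this window.

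**Figure D1:**
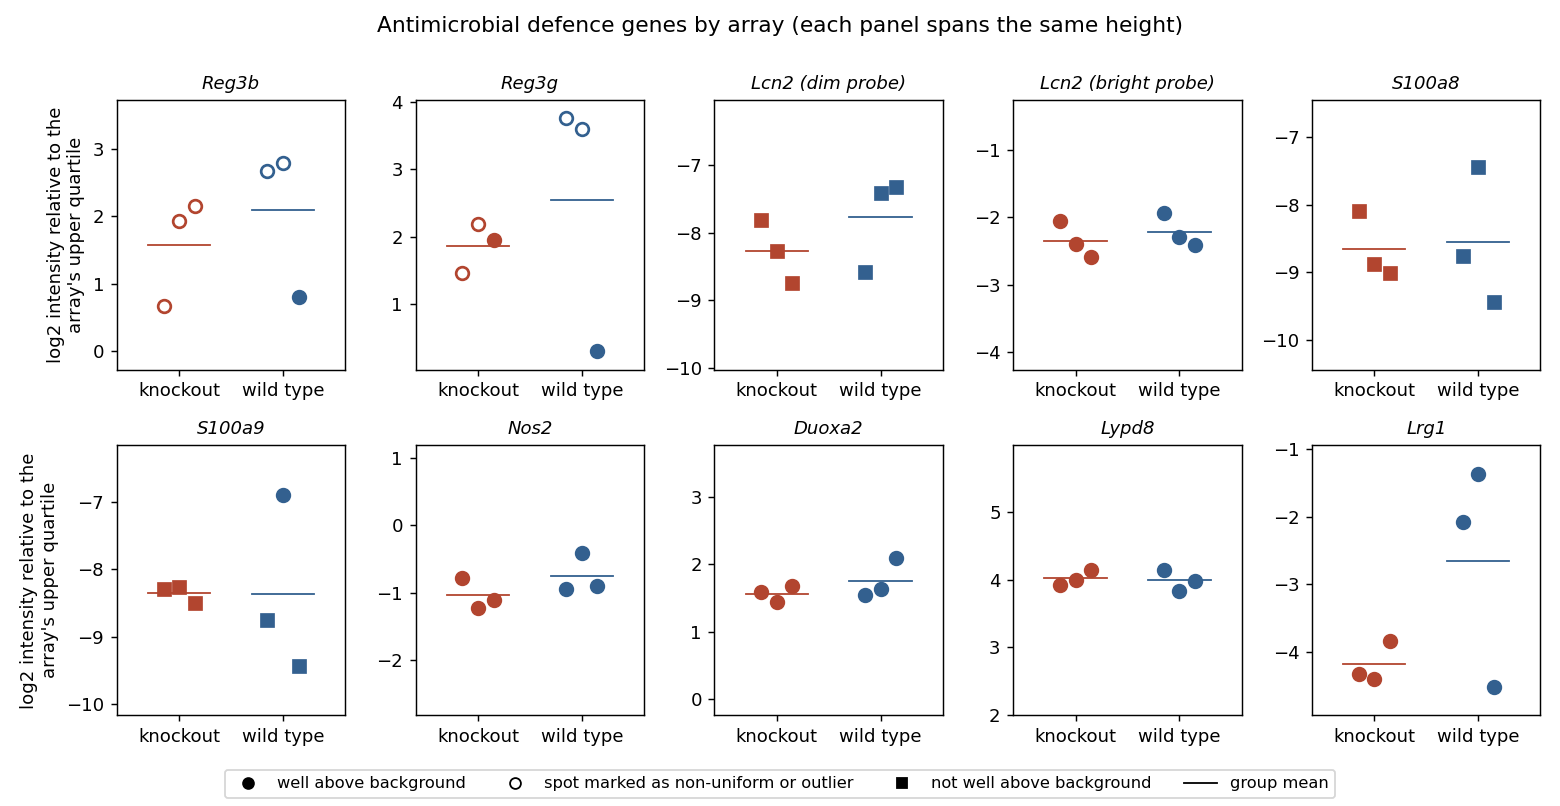
Log2 intensity relative to the 75th percentile of the array (vertical axis, 4 units in every panel) for the 10 probes of the members, with knockout arrays left and wild-type arrays right in replicate order, open symbols for marked spots, squares for spots not well above background and lines for group means. Reg3g and Lrg1 show wild-type replicates 1 and 2 far above wild-type replicate 3, whereas the 6 arrays of Lypd8 lie between 3.84 and 4.14.

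Lrg1, a secreted glycoprotein gene that responds to interleukin 6 family cytokines and is also expressed by endothelial cells and neutrophils, had the largest mean difference among the 5 members that could be tested with marked spots left out. Its log2 levels were -4.33, -4.40 and -3.84 in knockout replicates 1 to 3, against -2.09, -1.37 and -4.52 in wild-type replicates 1 to 3. As for Reg3g, wild-type replicates 1 and 2 lay above every knockout array and wild-type replicate 3 below every one. Its single probe, on a gene of chromosome 17, was unmarked and well above background on all 6 arrays. The log2 change was -1.53 ± 0.74 (SE, n = 3 and 3, 95% interval from -3.29 to 0.22), which did not pass over all 27916 features (limma adjusted p = 0.519, unadjusted p = 0.0779). The change was -2.46 ± 0.28 without wild-type replicate 3 (adjusted p = 0.0640) and -0.89 without wild-type replicate 2 (adjusted p = 0.889), so the value depended on which wild-type animal was used. The promoter of Lrg1 (chr17:56121897-56122196, minus strand, GRCm38.p6, RefSeq) is shown beside those of the Reg3 genes because it too was highest in wild-type replicates 1 and 2 and lowest in wild-type replicate 3, as Reg3g was, and it held no match to either motif.
Lrg1: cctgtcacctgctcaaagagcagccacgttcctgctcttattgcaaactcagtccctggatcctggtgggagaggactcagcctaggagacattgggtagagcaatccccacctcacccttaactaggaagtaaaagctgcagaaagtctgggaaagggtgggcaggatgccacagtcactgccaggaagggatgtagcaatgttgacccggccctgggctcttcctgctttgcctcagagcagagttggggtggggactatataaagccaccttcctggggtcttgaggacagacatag

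The animals with titles starting S405, 2 per group, leave out wild-type replicate 3, the lowest wild-type array for Lrg1, Reg3g and Reg3b. Lower knockout values in this subset therefore follow in part from which arrays it holds. Lrg1 did not pass over all arrays (limma adjusted p = 0.519) or without wild-type replicate 3 alone (limma adjusted p = 0.0640). Within the subset Lrg1 passed only just, while Reg3g and Reg3b did not pass, and a difference between these genes was not tested. Lrg1 had a log2 change of -2.64 ± 0.26 (adjusted p = 0.0473), where 0.161% of 26750 features were called lower. With the marked spots kept, Reg3g had a log2 change of -1.85 ± 0.27 (adjusted p = 0.102) and Reg3b one of -1.44 ± 0.42 (adjusted p = 0.231), while 0.127% of 32275 features were called lower and 33.1% had every knockout array below both wild-type arrays. The remaining pair, 1 knockout and 1 wild-type animal, differed the other way, by 1.64 log2 units for Reg3g, 1.35 for Reg3b and 0.68 for Lrg1 in knockout minus wild type. With 1 animal per genotype that reversal has no replicate check, and the difference between the 2 title groups was not tested.

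**Figure D2:**
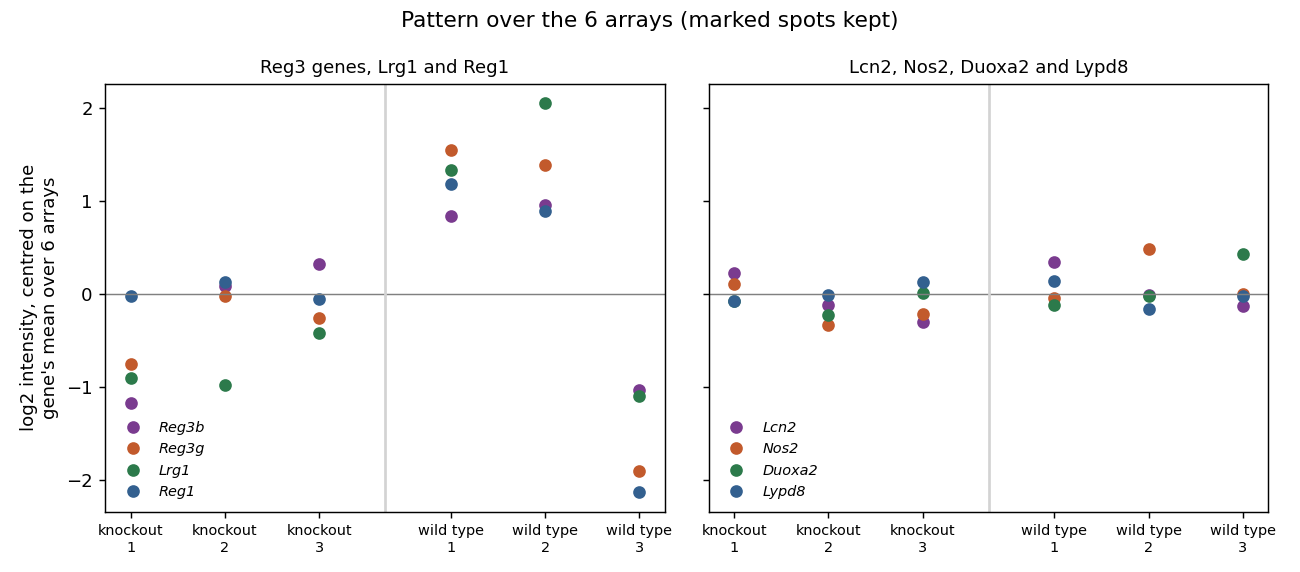
Log2 intensity of each gene centred on its own mean over the 6 arrays (vertical axis), for knockout replicates 1 to 3 (left of the line in each panel) and wild-type replicates 1 to 3 (right), with marked spots kept. Reg3b, Reg3g, Lrg1 and Reg1 are above their means on wild-type replicates 1 and 2 and below them on wild-type replicate 3, while Lcn2, Nos2, Duoxa2 and Lypd8 stay close to theirs on every array.

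Genes whose centred values over the 6 arrays lay closest to those of a member were named by the root mean square difference. For Reg3g, with marked spots kept, the closest of 15738 genes was another lectin of the same family, Reg1, at 0.41 log2 units. Reg1 had log2 levels of -4.28, -4.12 and -4.31 in knockout arrays, against -3.07, -3.36 and -6.39 in wild-type arrays, again highest in wild-type replicates 1 and 2 and lowest in wild-type replicate 3. Its mean did not differ beyond its error (log2 change 0.04 ± 0.81, limma adjusted p = 0.993). Of the other relatives in the list, Reg3d and Reg4 did not run this way, and Reg3a did so only in part. Reg3d was highest in wild-type replicate 3, at -2.71, -2.91 and -2.63 in knockout arrays, against -2.88, -2.90 and -2.54 in wild-type arrays. Reg4, with marked spots kept, had 4.13, 3.62 and 4.35 in knockout arrays, against 3.98, 3.75 and 4.24 in wild-type arrays. Reg3a was lowest in wild-type replicate 3, as Reg3g and Reg1 were, but highest in knockout replicate 3. It had -5.92, -4.72 and -1.91 in knockout arrays, against -4.52, -3.91 and -6.11 in wild-type arrays. None of the 3 differed beyond its error between the genotypes (limma adjusted p = 0.973 for Reg3d and 0.861 for Reg3a, and 0.966 for Reg4 with marked spots kept). After Reg1, the genes closest to Reg3g were Dbp, a clock-controlled transcription factor gene, at 0.53, and Dnah17, an axonemal dynein gene, at 0.54. For Reg3b the closest were the carboxylesterase gene Ces3a at 0.20, the mast cell protease gene Mcpt9 at 0.31 and the steroid dehydrogenase gene Akr1c18 at 0.31. For Lrg1 they were Prl6a1 at 0.46, the cornified envelope gene Sprr2h at 0.52 and the small GTPase gene Rhoj at 0.53. Among the members, Reg3b and Reg3g differed by 0.57 and Reg3g and Lrg1 by 0.59, against 1.19 for Reg3g and Lypd8. With 6 arrays and so many candidates, such a ranking is a description.

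The metal-withholding genes were low or steady. Lcn2 encodes lipocalin 2, which binds bacterial siderophores, and its brighter probe had log2 levels of -2.05, -2.40 and -2.58 in knockout arrays, against -1.94, -2.29 and -2.41 in wild-type arrays. The 2 groups overlapped almost fully, with a log2 change of -0.13 ± 0.19 (95% interval from -0.58 to 0.32, limma adjusted p = 0.847). A second Lcn2 probe was not well above background on any array, so Lcn2 rests on 1 probe. S100a8 and S100a9 encode the subunits of calprotectin, which chelates zinc and manganese. The S100a8 probe was not well above background on any of the 6 arrays, and the S100a9 probe only on wild-type replicate 2. Neither could be tested and no fold is given for them.

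Neutrophils, the main source of calprotectin, were followed by 15 marker genes. Of these, 8 were not well above background on any array, among them the granule genes Ngp, Elane, Prtn3 and Mmp8. Another 6 were so on all 6 arrays, including Csf3r, which had log2 levels of 3.29, 3.30 and 3.28 in knockout arrays, against 3.58, 3.51 and 3.35 in wild-type arrays, without overlap (limma adjusted p = 0.611). Over all tested features, the groups did not overlap for 18%. The 6 tested markers were split into 3 above and 3 below 0, and Ctsg (0.12 ± 0.17), Itgam (0.03 ± 0.13) and Trem1 (0.0059 ± 0.11) overlapped between the groups. All listed markers summed to between 39.5 and 40.2 multiples of the 75th percentile in knockout arrays and between 37.5 and 44.5 in wild-type arrays. Nearly all of that sum comes from the probes of Itgam, Csf3r, Trem1 and Ly6g, so it describes these probes and not the level of neutrophils. Of 6 tested markers 0 passed, and Stfa2l1 had the smallest p (log2 change -0.70 ± 0.23, unadjusted p = 0.0207, adjusted p = 0.368). Of 10 endothelial markers, 4 were not well above background on any array, Cdh5, Kdr, Emcn and Tek. Of the 6 tested, 5 were below 0 and 0 passed, where 17163 of all 27916 features were below 0. The tight junction gene Cldn5 was lower on every knockout array (log2 change -0.55 ± 0.15, unadjusted p = 0.00767, limma adjusted p = 0.293). The endothelial list summed to between 0.553 and 0.660 in knockout arrays and between 0.631 and 0.702 in wild-type arrays. Most of that sum comes from the probes of Vwf and Pecam1, so it describes these probes and not the level of endothelial cells. The part of either cell type in the values of Lrg1 was not tested.

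The oxidant-producing genes showed small differences. Nos2, the inducible nitric oxide synthase gene, had log2 levels of -0.78, -1.22 and -1.11 in knockout arrays, against -0.94, -0.41 and -0.90 in wild-type arrays. Wild-type replicate 2 was the brightest and the other 5 arrays intermixed, and the log2 change was -0.29 ± 0.19 (95% interval from -0.75 to 0.17, limma adjusted p = 0.641). It was -0.12 without wild-type replicate 2. Duoxa2, which carries Duox2 to the apical membrane, had log2 levels of 1.59, 1.43 and 1.67 in knockout arrays, against 1.54, 1.64 and 2.09 in wild-type arrays. Its log2 change was -0.19 ± 0.17 (95% interval from -0.60 to 0.22, limma adjusted p = 0.739), and it was -0.027 without wild-type replicate 3, the highest array for this gene. Its wild-type replicate 3 was thus high where those of Reg3b, Reg3g and Lrg1 were low. The genes closest to Duoxa2 over the arrays, of 11017, were Acod1, which makes itaconate in activated macrophages, at 0.06, Cyp2c37 at 0.06 and Apba2 at 0.08.

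Lypd8, the flagella-binding glycoprotein of colonocytes, was the steadiest member. It had log2 levels of 3.92, 3.99 and 4.14 in knockout arrays, against 4.14, 3.84 and 3.99 in wild-type arrays, with full overlap. The log2 change was 0.03 ± 0.13 (limma adjusted p = 0.960), and the 95% interval from -0.28 to 0.34 bounds the difference more tightly than for the other tested members. The range was 0.21 among knockout arrays and 0.30 among wild-type arrays, below the median range of all features.

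Of the 10 members, 5 passed the filters and 0 of these were called in either direction at an adjusted p under 0.05 (limma), where 0.208% of 27916 features were called. At an unadjusted p under 0.05 the count was also 0 of 5, against 10.7% of features, and the arrays of the 2 groups overlapped for all 5, while they did not for 18% of features. The median log2 change of the 5 was -0.19, with 1 above and 4 below 0. Over all features the median was -0.06, with 10753 above and 17163 below 0. With the marked spots kept, 7 members could be tested and 0 were called, with a median of -0.29 against -0.05 over all features. These counts exclude Duox2, S100a8 and S100a9.

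**Figure D3:**
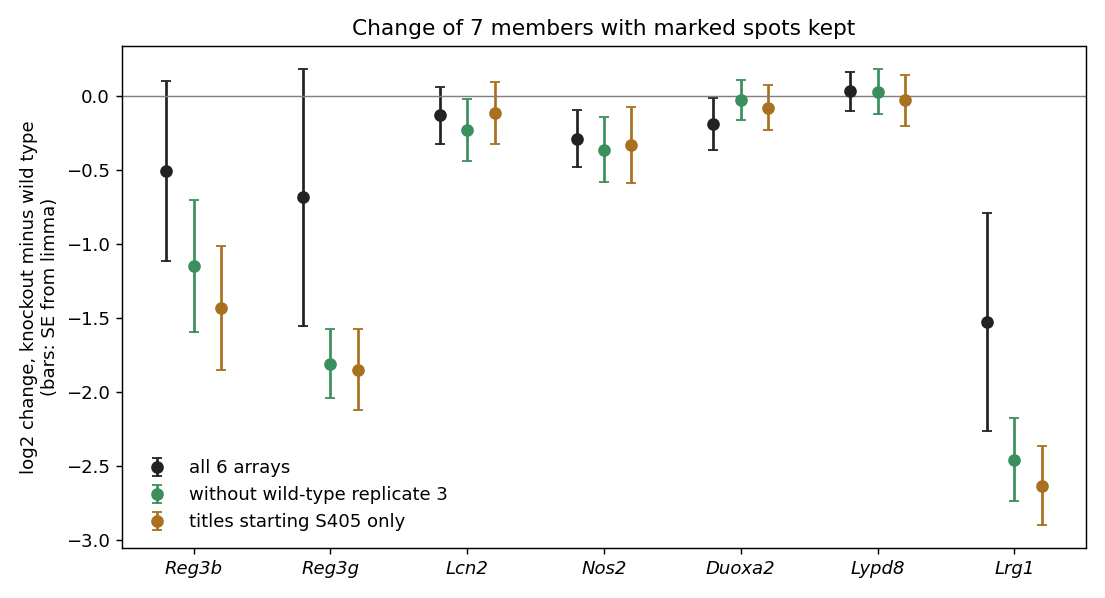
Log2 change, knockout minus wild type (vertical axis), of the 7 members that could be tested with marked spots kept, from all 6 arrays (black), without wild-type replicate 3 (green) and with only the titles starting S405 (brown), with bars for the SE from limma. Reg3b, Reg3g and Lrg1 lie lower in both subsets, at -1.15, -1.81 and -2.46 without wild-type replicate 3. The bars of Reg3b, Lcn2, Nos2, Duoxa2 and Lypd8 overlap between the 3 sets of arrays, which share animals.

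Other genes of the pathway were read from lists, and those named were mostly the ones with the smallest unadjusted p of their list. Of all 27916 tested features, 10.7% had an unadjusted p under 0.05 (limma) and 18% had groups that did not overlap. Of 31 other secreted antimicrobial genes 19 were tested, with 0 called, 11 above and 8 below 0 and a median log2 change of 0.01. Itln1, the intelectin that binds microbial glycans, had log2 levels of 3.02, 3.08 and 3.07 in knockout arrays, against 1.91, 1.95 and 2.59 in wild-type arrays. Its groups did not overlap and its log2 change of 0.90 ± 0.20 missed the threshold (limma adjusted p = 0.212). The peptidoglycan recognition gene Pglyrp1 had 0.56 ± 0.21 (adjusted p = 0.418), the cathelicidin gene Camp, well above background on 5 of 6 arrays, -0.52 ± 0.20 (adjusted p = 0.431) and the lipopolysaccharide-binding protein gene Lbp -0.73 ± 0.44 (adjusted p = 0.600).

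Among 22 oxidant and nitric oxide enzymes 19 were tested and 0 were called, with a median log2 change of -0.05. The heme peroxidase gene Lpo, whose product uses hydrogen peroxide, had log2 levels of 3.74, 3.38 and 1.82 in knockout arrays, against 0.72, 1.14 and 1.52 in wild-type arrays. Every knockout array lay above every wild-type array, and its log2 change of 1.86 ± 0.49 missed the threshold (limma adjusted p = 0.286). Duox1, the paralogue of Duox2, had a log2 change of 0.68 ± 0.19 without overlap (adjusted p = 0.306). The endothelial synthase gene Nos3, well above background on 4 of 6 arrays, had -0.30 ± 0.12 (adjusted p = 0.462), which rests partly on signals near background, and Noxo1, the organizer of the colonic NADPH oxidase, -0.22 ± 0.13 (adjusted p = 0.600).

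Of 21 inducing cytokines and receptors 16 were tested and 0 were called, with a median of -0.07. Il22 had log2 levels of -3.55, -3.67 and -3.57 in knockout arrays, against -3.26, -3.23 and -3.48 in wild-type arrays. The knockout arrays were all lower, by a log2 change of -0.28 ± 0.12 that missed the threshold (limma adjusted p = 0.482). Il22ra1, its epithelial receptor subunit, had -0.18 ± 0.12 (adjusted p = 0.649), Ifng -0.46 ± 0.28 (adjusted p = 0.608) and Il17re -0.19 ± 0.12 (adjusted p = 0.617). Il17f was well above background on 2 knockout and 1 wild-type arrays, so its log2 change of 0.84 ± 0.28 (adjusted p = 0.368) rests partly on signals near background. Il17a and Il6 were not well above background on any array.

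The 14 intracellular effectors and feedback genes gave 13 tested and 0 called, with 10 below 0 and a median of -0.14. Over all 27916 tested features, 17163 were below 0 and the median was -0.06. Zc3h12a, the ribonuclease Regnase-1 that degrades cytokine mRNAs, had log2 levels of 0.63, 0.12 and 0.42 in knockout arrays, against 1.13, 1.05 and 1.10 in wild-type arrays. These groups did not overlap, at a log2 change of -0.70 ± 0.16 that missed the threshold (limma adjusted p = 0.217). Socs3, the STAT3 feedback inhibitor gene, had -0.63 ± 0.22 (adjusted p = 0.377), Atf3 -0.66 ± 0.25 (adjusted p = 0.413) and Traf3ip2, the interleukin 17 receptor adaptor gene, -0.21 ± 0.15 (adjusted p = 0.658). Stat3 itself had -0.04 ± 0.12 (adjusted p = 0.943).

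Of the 5 neutrophil chemokine genes 2 were tested, and neither passed. Cxcl5, an epithelial chemokine, had log2 levels of -7.75, -7.96 and -4.35 in knockout arrays, against -4.81, -3.61 and -3.79 in wild-type arrays. It was well above background on 1 knockout and 3 wild-type arrays, so its log2 change of -2.61 ± 0.94 (limma adjusted p = 0.394) rests partly on signals near background. Cxcl1 had -0.30 ± 0.32 (adjusted p = 0.788).

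**Figure D4:**
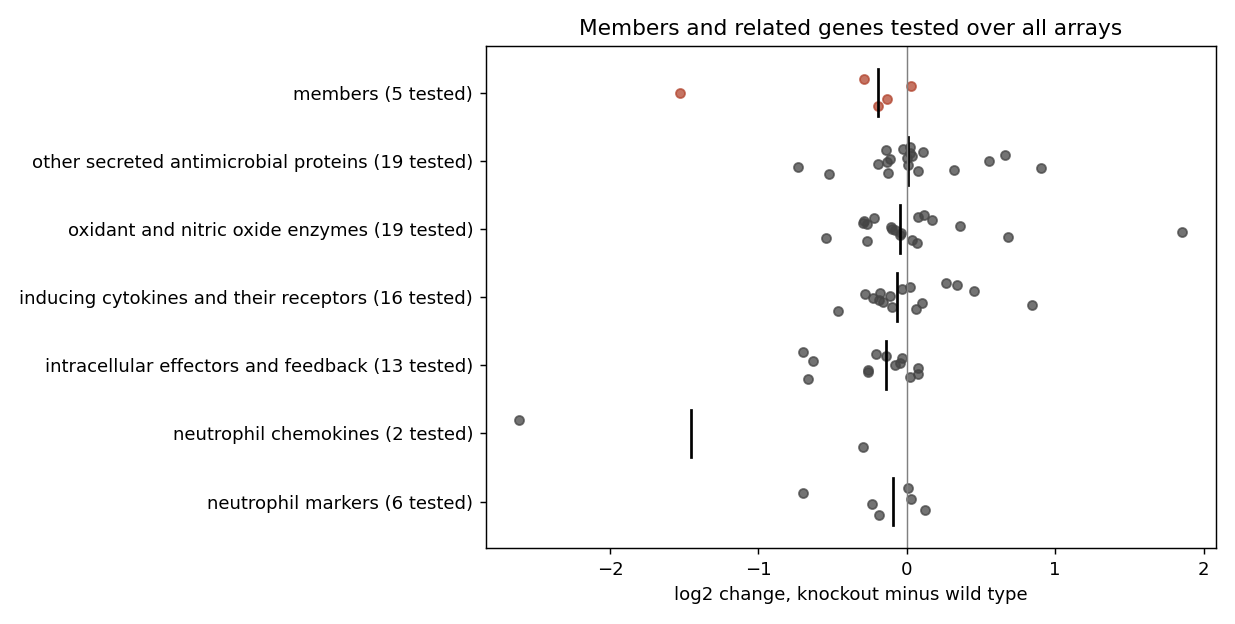
Log2 change, knockout minus wild type (horizontal axis), of every tested gene in the members' list (red) and 6 related lists (grey), with a line at each list's median. None of these genes passed an adjusted p of 0.05, and the points farthest from 0 are Lpo at 1.86, Lrg1 at -1.53 and Cxcl5 at -2.61, the last with 2 knockout arrays not well above background.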

How the data were processed

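RNA of 3 miR-31 knockout and 3 wild-type mice was measured with an Agilent array for each mouse. The deposited scanner files give spot intensity, background-subtracted and detrended within the array, from Feature Extraction 11.5.1.1 per the file headers (10.7 per the submitters' processing notes). The authors' series table holds the same intensity per probe, linear: 99.7% of its values equal the scanner intensity to 0.01 on the log2 scale, with column medians of 230 to 262, so the scale is linear and uncentred. Marks of the software are per the file headers.

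Of 62976 spots per array, 3671 control spots were left out. Accessions were matched to RefSeq (GRCm38.p6), giving 33767 of 56605 probes a symbol. Intensity was taken as log2 minus the 75th percentile. Spots marked as non-uniform, outlier or by hand were left out, 0 were saturated, and spots of a probe were averaged. Probes well above background on 3 of 6 arrays with 2 unmarked arrays per group were tested, using the probe with the highest mean per gene. The fit was limma 3.58.1 (R 4.3.3, statmod 1.5.0), two-sided, without covariates, adjusted by Benjamini-Hochberg over all features, and the code was tested on simulated data. The number of arrays limits the precision.

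The members and lists were chosen with earlier results of these data known. Named genes were all members, up to 4 of each of the lists described by smallest unadjusted p, and the 3 genes of nearest pattern for Duoxa2 and Lrg1. Reg1, Stat3, Il22ra1, Il17a, Il6, Reg3a, Reg3d, Reg4, Csf3r, Ctsg, Itgam, Trem1, Ly6g and Cldn5, the genes near Reg3b and Reg3g, and the markers named as below background were chosen after their values were seen. Macrophage, T and B cell, stromal, epithelial and surface colonocyte lists gave 0 calls each over 7, 9, 7, 5 and 7 tested genes.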

Additional observations from a re-analysis of the deposited data

How the results depend on the processing

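Over 19 alternatives 0 of the tested members passed, except for 1, Lrg1, with the slide column as a block (log2 change -2.64, adjusted p = 0.0210) and with titles starting S405 only (-2.64, adjusted p = 0.0473), which hold the same 4 informative arrays. Its log2 change lay between -2.64 and -0.89 over all alternatives. The count over all features was 58 and moved to 100 with normexp, 35 without the filter on dim probes, 106 with trend and robust variance, 105 with array weights, 237 with the slide column, 107 with titles starting S405 only and 22 to 116 with 1 array left out. The median of the tested members, -0.19, moved to -0.29 with marked spots kept, where 7 members entered, and ranged from -0.30 to -0.13 with 1 array left out. The sign turned for Lypd8, at -0.031 with the slide column and with titles starting S405 only, -0.030 without knockout replicate 3 and -0.046 without wild-type replicate 2 (range -0.046 to 0.11 with 1 array left out), and for Lcn2, at 0.0054 without wild-type replicate 1 (range -0.28 to 0.0054). With marked spots kept, where no slide column fit was run, the other values are the same. The cause was not tested. With marked spots kept, Reg3g ranged from -1.85 to -0.08 and Reg3b from -1.44 to -0.05 over 11 alternatives chosen after seeing the data, as was normexp on the spot's median signal, since the files used here hold no mean signal. The block by title number changed no call of a member. No paired analysis was possible because the labels give no replicate numbers shared by the groups. The slide column and title number blocks above use array position and title number, which no label gives as a pairing of animals. Signals of S100a8 and S100a9 near background set a limit on what these arrays can show for them.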
